A study of Mus musculus with 8 samples.

Results

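The transcripts described here are 10 that were grouped as ubiquitous and abundant, chosen by gene symbol: Actb, Actg1, Tmsb4x, Vim, Eef1a1, Tpt1, Gapdh, B2m, Fth1 and Ubb. Vim was the dimmest of those measured and is typical of mesenchymal cells. Of these, 7 had a probe set annotated to that gene alone (Actb, Tmsb4x, Vim, Eef1a1, Tpt1, B2m and Fth1), out of 19411 genes with such a probe set on the array. Actg1 and Gapdh had only probe sets shared with other genes, and no probe set was named for Ubb. Where a gene had several probe sets of its own, the one with the highest mean over the 8 arrays stood for it.

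RNA of C57/Bl6 mice was measured on Affymetrix arrays, 1 array per sample, to ask how the diet of male mice relates to the RNA in their sperm. There were 3 arrays of sperm from males on a control diet, 2 of sperm under a low protein diet, 1 of sperm under caloric restriction, and 1 of epididymal tissue for each of the control and low protein diets. Control and low protein males were raised on their diets until 9 to 12 weeks old; for caloric restriction the labels state no age. Sperm came from the caudal epididymis, left in medium for 30 minutes, and per the labels only preparations more than 99.5% pure by microscopy were used. The labels also state that preparations with detectable Actb or Myh11 by quantitative PCR were rejected, both being named there as genes of the epididymis. Whether animals were pooled, and whether each array stands for a different animal, is not stated. The p-values therefore rest on a spread between samples that may be technical.

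Mature sperm have shed most of their cytoplasm and do not transcribe, and they keep RNA mostly left from spermatid stages. Beta and gamma actin, elongation factor 1 alpha, ferritin and beta 2 microglobulin are made in large amounts by nearly every somatic cell, so RNA from somatic cells in a sperm preparation would carry their transcripts. Germ cells replace several housekeeping proteins with variants of their own, among them Gapdhs in place of Gapdh and actin-related proteins of the sperm head.

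The regions around the annotated starts of 3 of these genes are printed here because their signals behaved differently on the sperm arrays: B2m had the largest difference between sperm and epididymis, Eef1a1 the smallest, and Vim the narrowest range within sperm. Each holds 250 bases before and 50 after the start in RefSeq (GRCm38.p6), 5′ to 3′, for B2m at chr2:122147437-122147736 (plus strand), Vim at chr2:13574061-13574360 (plus strand) and Eef1a1 at chr9:78481675-78481974 (minus strand). Capitals mark matches, on either strand, to the TATA box (TATAAA), the CCAAT box (CCAAT) and the GC box (GGGCGG), none of which overlapped another.
B2m: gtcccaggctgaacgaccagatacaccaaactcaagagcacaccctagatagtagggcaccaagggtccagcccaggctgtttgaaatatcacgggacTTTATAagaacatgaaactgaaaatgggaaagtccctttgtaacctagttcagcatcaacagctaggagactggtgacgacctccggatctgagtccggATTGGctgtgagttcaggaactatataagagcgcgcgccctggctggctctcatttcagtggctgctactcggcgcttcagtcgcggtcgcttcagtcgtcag
Vim: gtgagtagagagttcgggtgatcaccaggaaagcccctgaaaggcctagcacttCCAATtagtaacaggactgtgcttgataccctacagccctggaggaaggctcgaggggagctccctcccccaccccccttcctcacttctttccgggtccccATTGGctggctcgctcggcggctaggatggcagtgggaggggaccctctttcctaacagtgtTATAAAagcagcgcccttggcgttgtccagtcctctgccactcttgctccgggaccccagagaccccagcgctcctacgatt
Eef1a1: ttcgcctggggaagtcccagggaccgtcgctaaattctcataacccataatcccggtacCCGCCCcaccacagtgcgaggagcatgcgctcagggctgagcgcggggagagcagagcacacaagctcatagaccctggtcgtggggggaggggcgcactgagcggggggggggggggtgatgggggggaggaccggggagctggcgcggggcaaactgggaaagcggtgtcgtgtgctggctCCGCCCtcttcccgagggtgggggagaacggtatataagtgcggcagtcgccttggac
Vim had 1 TATA box match, 32 bases before the start, and 2 CCAAT box matches. B2m had 1 match to the TATA box, 152 bases before the start, and 1 to the CCAAT box, 53 bases before it. Eef1a1 had 2 GC box matches and no match to TATAAA or CCAAT. Only these exact letters were searched, so related forms, such as tatataa in the B2m and Eef1a1 windows, are not marked. Over 32851 RefSeq windows of the same length, 13.6% held the TATA box, 37.4% the CCAAT box and 35.7% the GC box. These matches describe the letters only. Windows were matched for 9 of the 10 genes.

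The sperm arrays carried the sperm transcripts their label calls for: of 17 late spermatid markers, all 17 rose in sperm against epididymis, with a median log2 change of 3.36. Low protein sperm replicate 2 stood apart from the other sperm arrays, with a correlation of 0.71 to 0.86 with them over the 13587 genes tested, against 0.85 to 0.98 among the others. It had the lowest sperm value of each of the 7 genes, and of 34.0% of all genes tested, so results that rest on it are given with and without it.

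All 7 genes had a lower signal on every sperm array than on both epididymis arrays, while 35.6% of all genes tested lay lower in sperm without overlap. The decrease passed the test for 6 of 7 (limma, adjusted p under 0.05 over 13587 genes). Of all genes tested 48.5% were called, 30.1% lower in sperm and 18.4% higher, and at an unadjusted p under 0.05, where all 7 were lower, 33.9% of all genes were. The median log2 change of the 7 was -1.16, beside -0.08 over all genes tested. It was -0.65 over the 480 genes with a mean log2 level of at least 9, of which 44.0% were called lower. The median of the 7 is the change of Vim, which is not among the 480 and exceeded 9 only in control epididymis (9.20). Changes are from a fit with tissue and diet as terms, to which the caloric restriction array adds nothing between tissues, and errors are moderated standard errors. In whole samples of this kind, fewer cells of a type and less RNA per cell cannot be told apart.

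Among the genes of the cytoskeleton, Actb, which encodes beta actin and was a gene of the purity screen, had log2 levels of 11.43, 11.61 and 11.47 in control sperm, 11.04 and 10.49 under low protein and 11.28 under caloric restriction, against 12.67 in control and 12.50 in low protein epididymis. The tissues did not overlap, and the lowest sperm value was that of low protein replicate 2. Actb fell by 1.44 ± 0.20 (SE) on the log2 scale (95% interval -1.89 to -0.99; adjusted p by limma 0.000636), a signal 2.71-fold lower in sperm. Without low protein sperm replicate 2 the change was -1.29.

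Actg1, the gamma actin gene, could be read only through 4 probe sets shared with Actb. The brightest of them was at 10.67, 10.87 and 10.78 in control sperm, 10.50 and 9.45 under low protein, 10.71 under caloric restriction, and 11.84 and 11.57 in control and low protein epididymis. Its pattern over the arrays followed that of Actb, and signals of the 2 actins cannot be separated there. With every annotated probe set as a feature, 7706 of 15934 passed in either direction. All 4 shared actin probe sets were among them, with log2 changes between -1.62 and -1.31 (adjusted p by limma 0.00152 to 0.00475).

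Tmsb4x, the gene of thymosin beta 4, which binds actin monomers, was at 9.32, 9.71 and 9.61 in control sperm, 9.16 and 8.27 under low protein and 9.43 under caloric restriction, and at 10.29 and 10.04 in epididymis. Control sperm lay closer to epididymis for this gene than for Actb. It fell by 1.01 ± 0.26 (SE; adjusted p by limma 0.0112), a 2.02-fold lower signal, and the change was -0.79 without low protein sperm replicate 2. After quantile normalization the change was -0.54 (adjusted p by limma 0.077), and without the low protein epididymis array it was -0.74 (adjusted p 0.163); neither passed. After cyclic loess the change was -0.49 and passed.

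Vim encodes vimentin, the intermediate filament protein of fibroblasts, endothelium and other mesenchymal cells. Its log2 levels were 7.98, 7.75 and 8.10 in control sperm, 7.87 and 7.72 under low protein and 7.93 under caloric restriction, against 9.20 and 8.83 in control and low protein epididymis. All sperm arrays lay within 7.72 to 8.10, and low protein replicate 2 did not stand apart for this gene as it did for the others. Vim fell by 1.16 ± 0.15 (SE; adjusted p by limma 0.000556), and the change was -1.14 without low protein sperm replicate 2. Within the low protein arrays alone it was -1.04 with an adjusted p by limma of 0.0787, and after quantile normalization and cyclic loess it was -0.71 and -0.70, both past the threshold.

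Of the translation genes, Eef1a1, which encodes the factor that brings aminoacyl-tRNA to the ribosome, was at 13.28, 13.41 and 13.37 in control sperm, 13.18 and 12.40 under low protein and 13.05 under caloric restriction, and at 13.63 and 13.70 in epididymis. Low protein replicate 2 lay well below the other sperm arrays, which came close to the epididymis level. The log2 change of -0.57 ± 0.23 (SE; 95% interval -1.10 to -0.05) did not pass (adjusted p by limma 0.069). Without low protein sperm replicate 2 it was smaller, -0.37, and passed (adjusted p 0.0388), and without replicate 1 it was -0.68 (adjusted p 0.0411). It was -0.27 without the low protein epididymis array and -0.23 after cyclic loess, and did not pass in either. A shared Eef1a1 probe set was at -0.35 (adjusted p by limma 0.393). On it the tissues overlapped, with control sperm replicate 2 at 11.80 against 11.52 and 11.54 in epididymis.

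Tpt1 encodes the translationally controlled tumor protein, an abundant calcium-binding protein found in most tissues. Its levels were 11.09, 11.47 and 11.61 in control sperm, 11.19 and 10.43 under low protein and 11.27 under caloric restriction, and 12.00 and 11.89 in epididymis. Control sperm alone spread over 0.51 on the log2 scale, and low protein replicate 1 and the caloric restriction array lay inside that range. Tpt1 fell by 0.83 ± 0.24 (SE; adjusted p by limma 0.02). Its 4 probe sets gave changes between -0.89 and -0.83, all past the threshold, as were 7706 of all 15934 probe sets. The change was -0.65 without low protein sperm replicate 2. The call was lost after quantile normalization (-0.46, adjusted p by limma 0.0958) and cyclic loess (-0.37, adjusted p 0.0632), in the low protein arrays alone (-1.09, adjusted p 0.0633) and without the low protein epididymis array (-0.61, adjusted p 0.224). It was also lost with trended eBayes (adjusted p by limma 0.0607).

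B2m, the gene of the light chain that MHC class I molecules need to reach the cell surface, had the largest difference between the tissues. It was at 11.71, 12.23 and 11.64 in control sperm, 11.39 and 10.64 under low protein and 10.87 under caloric restriction, and at 13.24 and 13.22 in epididymis. The 2 epididymis arrays differed by -0.02, while the sperm arrays spread from 10.64 to 12.23. B2m fell by 1.76 ± 0.27 (SE; 95% interval -2.39 to -1.14; adjusted p by limma 0.00114), a 3.40-fold lower signal, and by 1.56 without low protein sperm replicate 2.

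Fth1, which encodes the heavy chain of the iron store ferritin, was at 10.88, 11.14 and 11.19 in control sperm, 10.78 and 10.01 under low protein and 10.48 under caloric restriction, and at 11.98 and 11.97 in epididymis. Both restricted diets lay below all control sperm arrays. Fth1 fell by 1.22 ± 0.24 (SE; adjusted p by limma 0.00359), a 2.33-fold lower signal, and by 1.02 without low protein sperm replicate 2. Leaving out the low protein epididymis array gave -0.91 and ended the call (adjusted p by limma 0.0759), and the change was -0.74 after cyclic loess.

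Gapdh, a glycolytic enzyme gene, was covered by 25 probe sets, each shared with sequences annotated as other genes, up to 8 genes on a probe set, and only 20 of them held distinct values. The brightest was at 10.73, 10.96 and 10.47 in control sperm, 10.62 and 10.00 under low protein and 10.24 under caloric restriction, and at 12.17 and 12.13 in epididymis. By this annotation the signal of these probe sets may include that of the other genes, which cannot be separated from Gapdh there. All 25 passed with every annotated probe set as a feature, as did 7706 of 15934. The 25 changes lay between -1.69 and -1.28 (adjusted p by limma 0.000338 to 0.000836). Gapdhs, the germ cell enzyme, went the other way and rose by 4.06 ± 0.20 (SE; adjusted p by limma 1.23e-05).

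**Figure D1:**
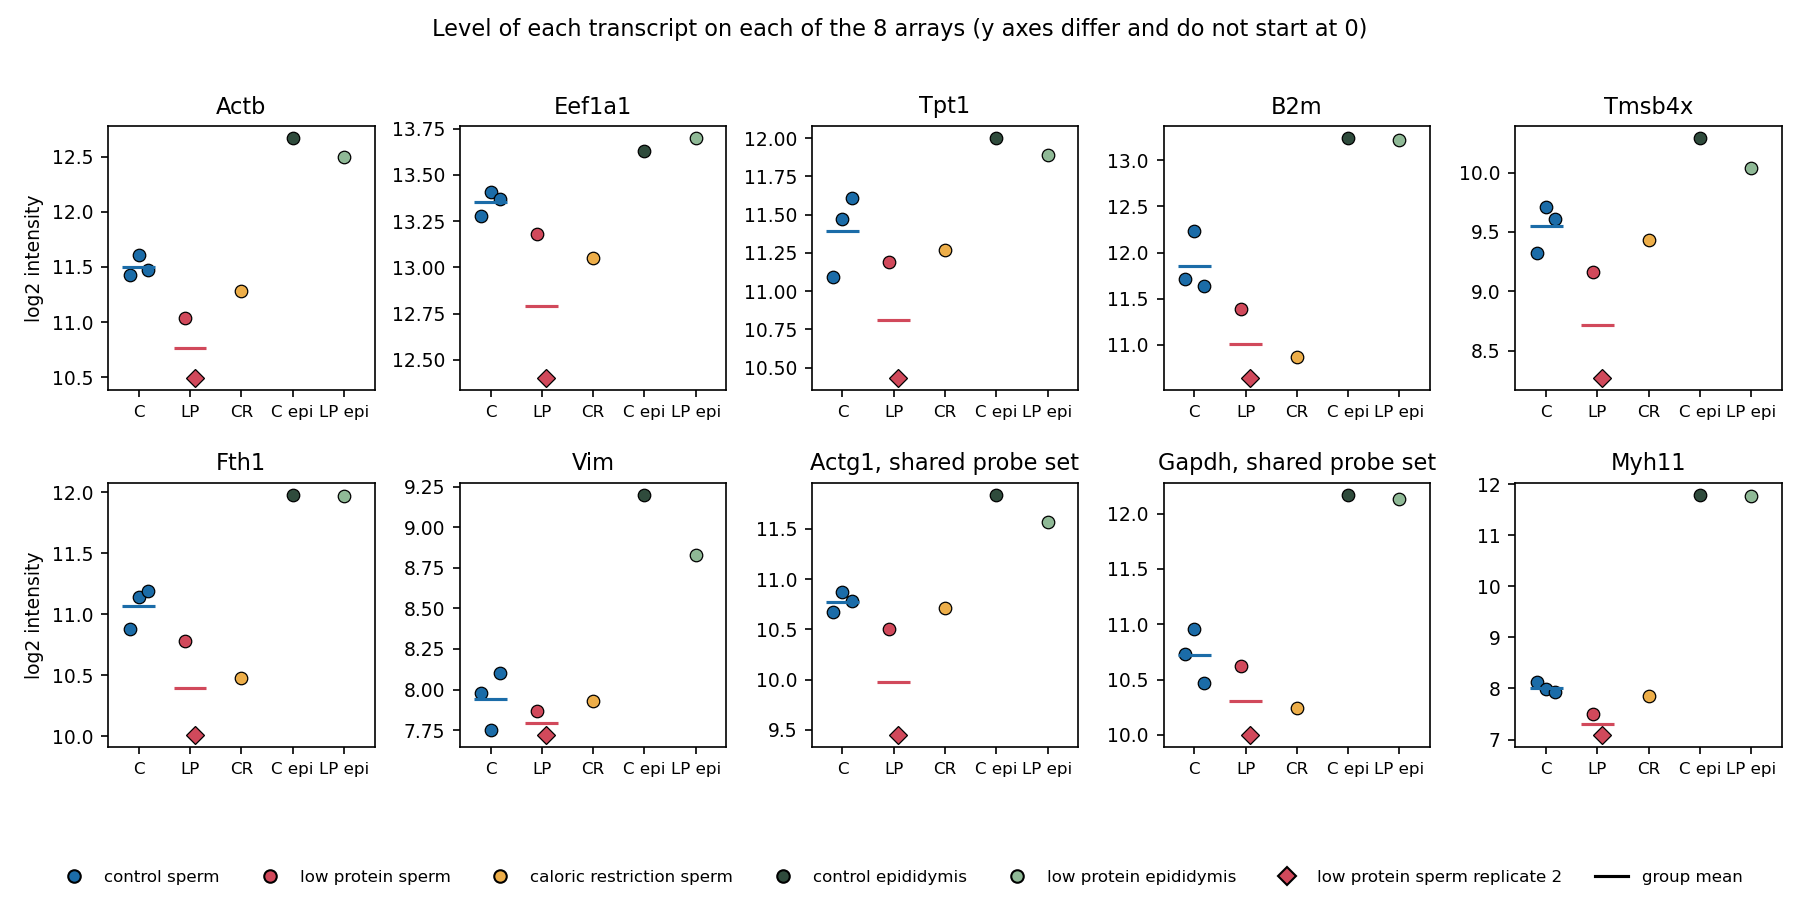
Log2 intensity (y axis, scaled per panel and not starting at 0) of each gene in control (C), low protein (LP) and caloric restriction (CR) sperm and in control and low protein epididymis (epi), with 1 point per array, a diamond for low protein sperm replicate 2 and a bar for the mean of groups with more than 1 array. In every panel the sperm points lie below both epididymis points, with fitted log2 changes from -0.57 for Eef1a1 to -4.10 for Myh11.

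The purity screen named Actb and Myh11 together, and both were set against the epididymis array by array. As a share of the mean epididymis signal, Actb was 44.7%, 50.7% and 46.1% in control sperm, 34.2% and 23.4% under low protein and 40.4% under caloric restriction. Myh11, the smooth muscle myosin heavy chain gene, was 7.97%, 7.16% and 6.99% in control sperm, 5.20% and 3.88% under low protein and 6.56% under caloric restriction. Every array thus had a much larger share of the epididymis signal for Actb than for Myh11. These shares are ratios of array signals and not of RNA molecules, since background on an array keeps the ratio of a dim signal from reaching 0.

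The difference between Actb and Myh11 within an array, which does not depend on the scaling between arrays, was 3.30 to 3.63 on the sperm arrays and 0.89 and 0.73 on the epididymis arrays. It was 2.66 larger in sperm on the log2 scale (exact two-sided permutation p = 0.0714 for 6 against 2 arrays, the smallest this design allows; adjusted over 3 such differences 0.107), with no overlap. The difference between Actb and the brightest shared actin probe set was 0.54 to 1.04 in sperm and 0.84 and 0.93 in epididymis (exact two-sided permutation p = 0.357, in a design that cannot reach 0.05), and the tissues overlapped. For the brightest shared Gapdh probe set and Gapdhs the difference in sperm minus that in epididymis was -5.75 (exact two-sided permutation p = 0.0714, adjusted 0.107), again with no overlap.

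Shares of the epididymis signal differed widely among the 7 genes. In control sperm they were 80.9% ± 3.58 (SD, n = 3) for Eef1a1, 68.7% ± 12.2 for Tpt1, 65.7% ± 8.81 for Tmsb4x, 53.8% ± 6.0 for Fth1, 47.7% ± 5.83 for Vim, 47.2% ± 3.13 for Actb and 39.4% ± 9.21 for B2m. Eef1a1 lay above B2m in each of the 6 sperm arrays. Neighbours in this order, such as Tpt1 and Tmsb4x or Vim and Actb, lay within the spread between replicates. After quantile normalization or cyclic loess the shares of Vim, Tpt1 and Tmsb4x were higher.

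Markers of tissue cells moved in the same arrays. The median share was 46.9% to 53.1% in control sperm for 12 markers of the epididymal epithelium, 43.4% and 20.5% under low protein and 38.6% under caloric restriction. Of 21 epithelial markers listed, 7 were left out by the filter on the mean over the 8 arrays, and Crisp1 and Cst8 were not matched. The 13 smooth muscle markers had medians of 15.6% to 18.0% in control sperm, 10.6% and 9.05% under low protein and 13.0% under caloric restriction. Fibroblast and matrix markers, 9 in number, lay at 46.1% to 70.5% in control sperm and at 47.4% and 29.1% under low protein, with the caloric restriction array inside the control range. Markers with a log2 level of at least 9 in epididymis had lower shares. In control sperm these were 29.6%, 31.9% and 52.5% for 5 fibroblast and matrix markers. For 8 epithelial markers they were 43.3%, 50.2% and 49.2%, and for 11 smooth muscle markers 13.4%, 15.1% and 11.3%. The 5 endothelial markers lay at 64.6% to 72.2%, at 56.4% and 78.3% and at 62.8% in the same order. Leukocyte markers, 10 in number, lay at 77.2% to 117% in control sperm, 107% in both low protein arrays and 108% under caloric restriction. Low protein replicate 2 was thus lowest for epithelium, muscle and fibroblasts but not for the leukocyte or endothelial lists. The endothelial markers were dim, with mean log2 levels of 5.92 to 6.33 on sperm arrays and 6.72 and 6.57 in epididymis. Of the 8 listed, 3 were left out at the filter level of 5.69, so background may hide changes in this list. Leukocyte markers had mean log2 levels of 7.11 to 7.71 on sperm arrays and 7.64 and 7.24 in epididymis. That mean is raised by Cd52, at 12.38 on average in sperm, so background may hide changes in other leukocyte markers too. All 13 smooth muscle markers, 10 of 12 epithelial, 8 of 9 fibroblast and matrix and 4 of 5 endothelial markers fell in sperm; of the leukocyte markers Cd52, which epididymal epithelium also makes, fell by 1.12 ± 0.35 (SE) and the lysozyme gene Lyz2 rose by 1.25 ± 0.45. No defining marker was at 0, and array signals keep a background. How much of the remaining marker signal was background was not tested. The mean log2 level in control sperm was 8.56 to 8.83 for epithelial, 7.29 to 7.52 for smooth muscle and 8.21 to 8.55 for fibroblast markers. Of 7 listed erythrocyte markers 1 was tested, with no change past the threshold. The part of tissue cells in the signal of the 7 genes was not tested.

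**Figure D2:**
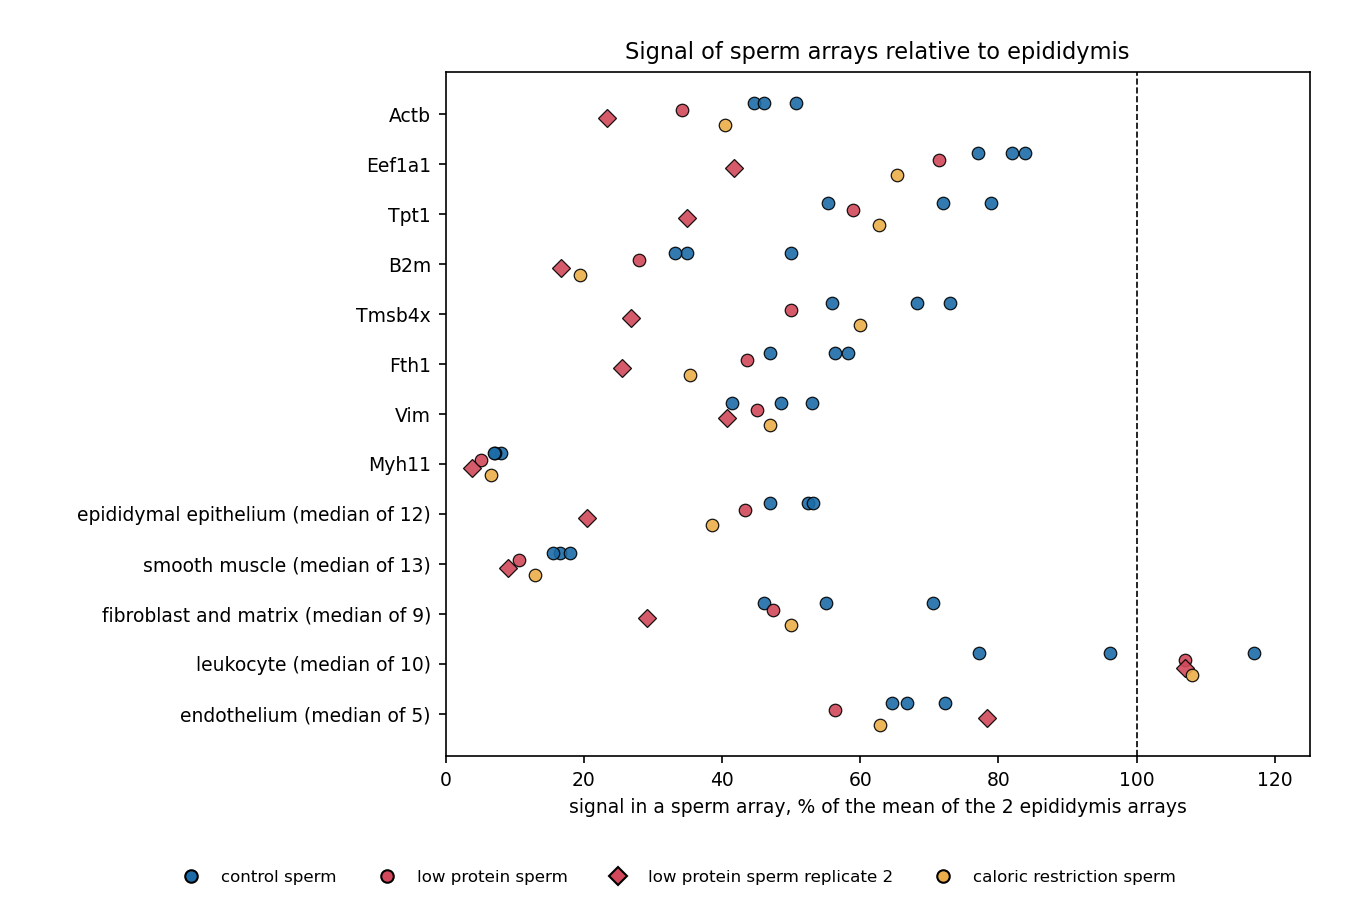
Signal of each sperm array as a percentage of the mean of the 2 epididymis arrays (x axis; the dashed line marks equality), for the 7 genes, for Myh11 and for the median of each list of tissue markers, with 1 point per array, small vertical offsets by diet and a diamond for low protein sperm replicate 2. Myh11 lies at 3.88% to 7.97%, Actb at 23.4% to 50.7% and Eef1a1 at 41.7% to 83.9%.

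Lists of genes that work beside the 7 differed in how many members were lower in sperm, and are read against 30.1% of all genes called lower (median -0.08) and 44.0% of the 480 bright genes (median -0.65). Of 13 actin cytoskeleton genes 8 fell and 1 rose, with a median log2 change of -0.86; the capping protein gene Capza2 fell by 2.05 ± 0.30 (SE), the myosin light chain gene Myl6 by 1.42 ± 0.23 and the profilin gene Pfn1 by 1.09 ± 0.21, while Tmsb10, a close relative of Tmsb4x, rose by 0.75 ± 0.18. Of the 4 other actin genes 3 fell, the largest change being that of the smooth muscle actin gene Acta2, which fell by 3.90 ± 0.51. Of 9 translation factor genes 4 fell (median -0.60), a share and a median like those of the bright genes; among them were Eif5a, which fell by 1.80 ± 0.22, and the poly(A)-binding protein gene Pabpc1, which fell by 0.65 ± 0.18. Eef2, whose product moves the ribosome along the message, had a log2 change of -0.33 ± 0.38 and did not pass.

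Of 7 somatic glycolysis genes 5 fell and 1, Tpi1, rose (0.55 ± 0.19, SE), with a median of -1.03; the largest fall was that of the phosphoglycerate kinase gene Pgk1, which fell by 1.70 ± 0.31. Of 11 germ cell counterparts 10 rose and 1 fell (median 2.04): Pgk2 rose by 3.81 ± 0.28, the lactate dehydrogenase gene Ldhc by 3.21 ± 0.20 as fitted, Pgam2 by 3.00 ± 0.28 and the capping protein gene Capza3 by 2.56 ± 0.23, whereas the cofilin gene Cfl2, which muscle also expresses, fell by 1.69 ± 0.21. Ldhc was at 5.55 to 5.69 in epididymis, no higher than the level below which genes were left out (5.69), so a signal that dim may be background and its change may be understated.

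Of 7 genes of MHC class I assembly 4 fell (median -1.38), namely the chaperone genes Pdia3, Canx, Tapbp and Calr, which serve other proteins too in the case of Pdia3, Canx and Calr. Tap1, Tap2 and Psmb8, which supply peptides, had changes of -0.40, -0.23 and -0.07 and did not pass. Of 7 iron genes 5 fell (median -1.08), including the transferrin receptor gene Tfrc (fell by 1.98 ± 0.23, SE), the ferritinophagy receptor gene Ncoa4 (fell by 1.22 ± 0.16) and the ferritin light chain gene Ftl1 (fell by 0.77 ± 0.25). Of 7 other intermediate filament genes 6 fell (median -1.41), from the muscle desmin gene Des at -3.19 ± 0.16 to the lamin gene Lmna at -0.46 ± 0.14. Of 6 ubiquitin genes tested 2 fell, Usp14 and Ube2d3 (median -0.07), a share and a median near those of all genes. Of 10 reference genes often used to normalise PCR, 8 fell (median -1.31), among them Hspa8, Hprt, Sdha, Ppia and Ywhaz, between -1.77 and -1.05.

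In low protein sperm, none of the 7 genes passed against control, although all 7 had lower means (56.5% of all genes tested did). Limma called 0 of 7 and 0 of 13587 genes, a background of 0.0%. Trended and robust versions of eBayes called 0 of 7 too. At an unadjusted p under 0.05, 5 of the 7 were lower, against 13.1% of all genes. Values of Actb, Eef1a1, B2m, Tmsb4x and Fth1 did not overlap between the 2 low protein and 3 control arrays; 22.4% of all genes tested lay lower without overlap.

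The log2 differences were -0.73 ± 0.20 (SE) for Actb, -0.84 ± 0.27 for B2m, -0.83 ± 0.27 for Tmsb4x, -0.68 ± 0.24 for Fth1, -0.58 ± 0.26 for Tpt1, -0.57 ± 0.23 for Eef1a1 and -0.15 ± 0.17 for Vim (adjusted p by limma 0.115 to 0.634). The interval for Vim ran from -0.55 to 0.26. Most of each difference came from low protein replicate 2. Against the control mean that array differed by -1.28 for Tmsb4x, -1.21 for B2m, -1.07 for Fth1, -1.01 for Actb, -0.96 for Eef1a1 and Tpt1 and -0.22 for Vim. Replicate 1 differed by -0.46 for Actb and B2m, -0.39 for Tmsb4x, -0.30 for Fth1 and -0.20 to -0.08 for the other 3. In replicate 2, 4 of the 7 lay more than 1 below the control mean, as did 9.49% of all genes, and the 480 genes with a mean level of at least 9 had a median difference of -0.88 there, against -0.01 over all genes. Without replicate 2 the differences were -0.46 to -0.08. With replicate 2 as the only low protein array they were -1.28 to -0.22. Both fits rest on a single low protein array, assumed to vary like the controls.

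Between low protein and control sperm, the shared actin probe sets differed by -0.79 to -0.73 and the shared Gapdh probe sets by -0.42 to -0.23. None passed the threshold, nor did any of the 15934 probe sets tested. Myh11 differed by -0.71 ± 0.19 (SE; adjusted p by limma 0.103). The mean level of 34 epithelial, smooth muscle and fibroblast markers was 8.07, 8.15 and 8.16 in control sperm and 7.77 and 7.29 in low protein sperm, and thus did not overlap either. With that mean as a covariate, 6 of the 7 differences turned positive (0.02 to 0.47, none past the threshold) and Actb was at -0.04. Since the covariate does not overlap between the diets, tissue content and diet cannot be told apart.

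In the caloric restriction array B2m and Fth1 lay lowest against control, at -0.99 ± 0.34 (SE; 95% interval -1.78 to -0.19) and -0.60 ± 0.31 (interval -1.31 to 0.12). Limma called 0 of 7, while it called 5.56% of all genes, 0.0368% lower and 5.53% higher. Trended and robust eBayes also called 0 of 7, and at an unadjusted p under 0.05 only B2m was lower, against 4.17% of all genes. The spread behind this test comes from the control and low protein arrays, and the values describe a single array. Eef1a1 differed by -0.31, Actb by -0.22, Tmsb4x and Tpt1 by -0.12 and Vim by -0.01. The array lay below all 3 controls for Actb, Eef1a1, B2m and Fth1, as it did for 45.8% of all genes, and inside the control range for Tpt1, Tmsb4x and Vim. With either low protein array left out the spread comes from the controls alone, and the difference of B2m was the same, -0.99. The marker mean of this array was 7.78.

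Among the genes that work beside them, 7 of 11 germ cell counterparts were called higher on the single caloric restriction array, against 5.53% of all genes called higher, including Pabpc2 (2.12 ± 0.28, SE), Ldhc (1.74 ± 0.21), Capza3 (1.73 ± 0.22) and Actl7b (1.64 ± 0.23). Tmsb10, the relative of Tmsb4x, was higher there by 1.32 ± 0.20 and past the threshold, beside a difference of -0.12 ± 0.34 for Tmsb4x itself, and the ubiquitin hydrolase gene Uchl3 was higher by 1.46 ± 0.21, also past it. Of 12 epithelial markers 1 passed, the glutathione peroxidase gene Gpx5, which fell by 1.42 (list median -0.52). Of 9 fibroblast and matrix markers 1 passed, the matrix gene Bgn, which fell by 1.01 (list median -0.20). The collagen genes Col1a1, Col1a2 and Col3a1 were at 0.35, 0.30 and 0.24 and did not pass. None of the 13 smooth muscle markers passed, and 6 of 17 late spermatid markers rose. In low protein sperm no gene of these lists passed, nor did any of the 13587 genes tested. The median difference there was 0.78 for germ cell counterparts and 0.74 for late spermatid markers. Under caloric restriction these medians were 1.3 and 0.71.

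With the 3 restricted arrays set against the 3 controls, the 7 differences ran from -0.89 to -0.10 and 0 of 7 passed by limma; of all genes 2.75% were called, 0.0294% lower and 2.72% higher. At an unadjusted p under 0.05, 4 of 7 were lower, against 14.0% of all genes, and neither trended nor robust eBayes called any of the 7. B2m came nearest, at -0.89 ± 0.23 (SE; adjusted p by limma 0.0775), followed by Fth1 at -0.65 ± 0.21, Tmsb4x at -0.60 ± 0.28 and Actb at -0.56 ± 0.21. Without low protein replicate 2 the differences were -0.72 to -0.04, and without replicate 1 they were -1.10 to -0.12. Restricted and control arrays did not overlap for Actb, Eef1a1, B2m and Fth1; 18.1% of all genes lay lower without overlap. The 3 diet comparisons share their control arrays.

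**Figure D3:**
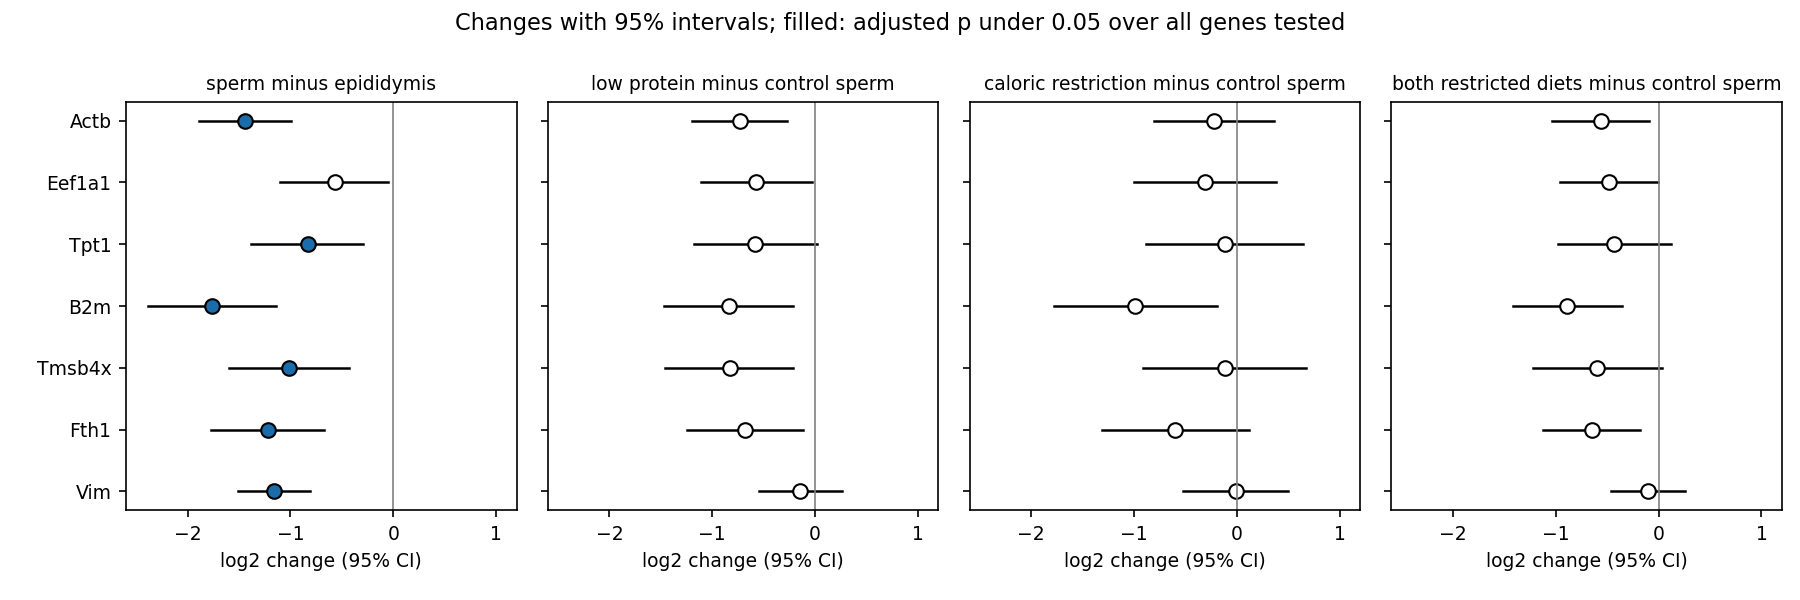
Log2 change of each gene (x axis) with its 95% interval from the limma fit, for sperm against epididymis and for each diet comparison in sperm; filled points passed an adjusted p of 0.05 over all 13587 genes tested. The 6 filled points are all between the tissues, and no diet point is filled.

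**Figure D4:**
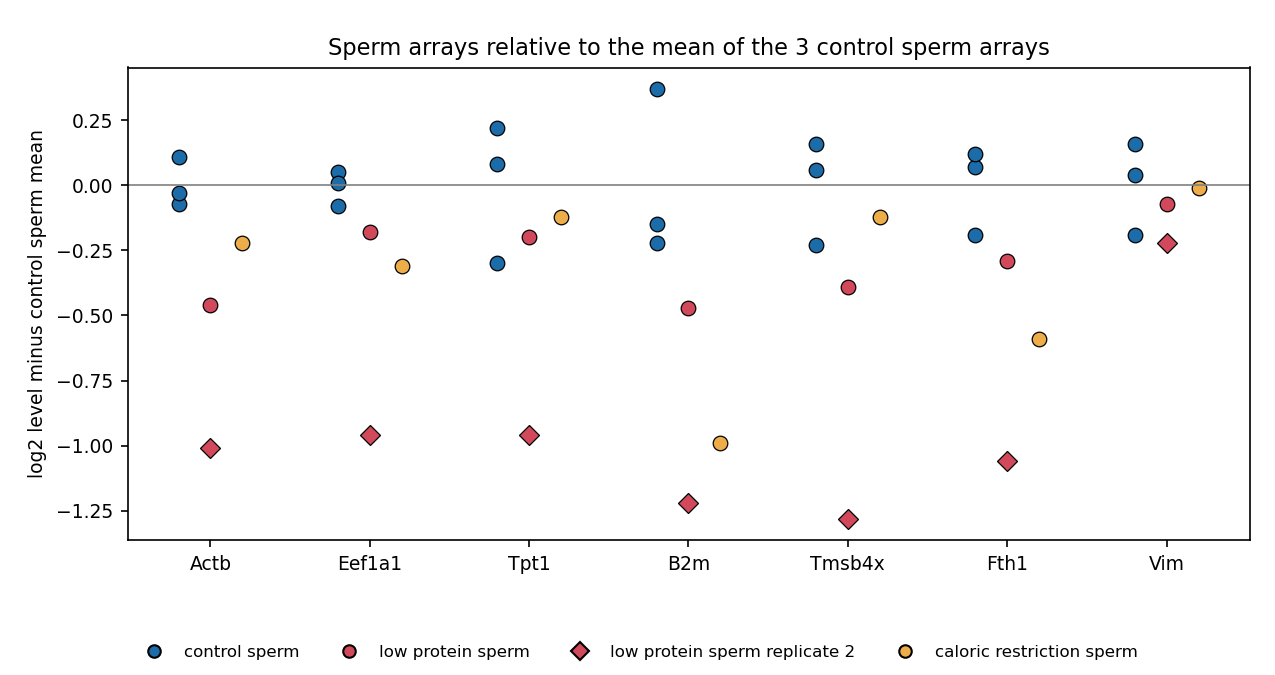
Log2 level of each gene on each of the 6 sperm arrays minus the mean of the 3 control arrays (y axis), with a diamond for low protein replicate 2. The diamond is the lowest point for each gene, at -1.28 for Tmsb4x and -0.22 for Vim.

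In the epididymis itself, low protein and control differed little in these genes. These differences, each between 1 array per diet, were not tested. They were 0.07 for Eef1a1, -0.01 for Fth1, -0.02 for B2m, -0.11 for Tpt1, -0.18 for Actb, -0.25 for Tmsb4x and -0.37 for Vim, beside an SD of 0.19 over all 13587 genes; 0.0662% of all genes differed by at least 1. Vim, which varied least between sperm diets, thus had the largest difference in epididymis. The low protein effect in sperm minus that in epididymis was -0.82 to 0.22 for the 7 genes, and limma called 0 of 7 and 0.0% of all genes (at an unadjusted p under 0.05, 0 of 7 and 0.434% of all genes, lower; by trended and robust eBayes, 0 of 7). Its intervals are wide, -1.42 to 0.30 for Actb. With low protein sperm replicate 2 as the only low protein sperm array, the 7 values ran from -1.19 to 0.15, with Eef1a1 at -1.03 and Fth1 at -1.06. That fit takes its whole spread from the 3 control sperm arrays and rests on the array that stood apart.

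Across the 6 sperm arrays the 7 genes varied together except for Vim, and many other genes followed Actb as closely. By Pearson r with Actb, Tmsb4x ranked 55, Eef1a1 271, Tpt1 1136, Fth1 1258, B2m 2678 and Vim 5029 among all other genes tested. The 15 pairs without Vim had a Pearson r of 0.70 to 0.97 (median 0.90), and the 6 pairs with Vim 0.16 to 0.58; the arrays share their normalization and differ in tissue marker level, and these values are a description. Without low protein replicate 2 the 15 pairs ran from 0.35 to 0.98 (median 0.66). The genes whose pattern over the 6 sperm arrays was most like that of Actb were Csrp1, a LIM protein gene of smooth muscle (r = 0.997), Gabbr2, a GABA receptor subunit gene (0.997), Ccnh, the cyclin H gene (0.995), Pbdc1 (0.995) and Tagln, the smooth muscle protein transgelin gene (0.994). Over the 5 arrays without low protein replicate 2 these were 0.98 to 1.00, but the genes were picked on arrays that include these 5. High values there follow from that choice. Over all 8 arrays r was 0.75 for Gabbr2 and 0.98 to 1.00 for the others. Gabbr2 (5.87 to 6.23) and Ccnh (4.98 to 6.24) were dim on the sperm arrays, near the filter level of 5.69. Csrp1 was at 9.41, 9.60 and 9.47 in control sperm, 8.63 and 7.72 under low protein and 9.07 under caloric restriction, against 11.70 and 11.62 in epididymis. Tagln was at 8.03, 8.15 and 7.98, then 7.38 and 6.81, and 7.73, against 10.53 and 10.72. Among the other 6 genes Tmsb4x was closest to Actb over the sperm arrays (r = 0.973) and Vim farthest (r = 0.497).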

How the data were processed

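RNA of 8 mouse samples was hybridised to Affymetrix gene arrays. Each array was deposited as 1 log2 intensity per probe set, which the authors obtained by RMA, per the submitters' processing notes; version, settings and annotation of that step: not given in the sources used here. That they are log2 was read from the values, which run from 1.2 to 14.5 with medians of 6.08 to 6.17. RMA as usually run quantile-normalizes probes, so a change in total RNA is not visible. The number of arrays limits the precision.

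Of 33660 probe sets, 21222 carried 1 gene, 1541 several and 10897 none by the platform annotation. Symbols were updated by gene identifier to an annotation of GRCm38.p6 for 21137 and kept for 85. Genes in the lowest 30% by mean (log2 5.69 and below) were left out, leaving 13587. Tests used limma 3.58.1 in R 4.3.3 (lmFit, eBayes, two-sided) with Benjamini-Hochberg adjustment over all genes tested, checked on simulated arrays, and exact permutation tests in scipy 1.17.1. Diets were compared in a fit of the 6 sperm arrays with 1 mean for each diet. Tissues were compared in a fit of all 8 arrays with tissue and diet as terms; caloric restriction, with sperm alone, fits its own term exactly. No arrays held identical values. The 10 genes, the lists of related genes and of cell type markers, and the rule for named genes were chosen with earlier results of these data known. The rule took the 10 genes in every comparison, Myh11, Gapdhs, the 5 genes most correlated with Actb over the sperm arrays, and the largest changes of each list, at most 4; further list members were named after their values were seen.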

Additional observations from a re-analysis of the deposited data

How the results depend on the processing

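Between sperm and epididymis, the count of 6 of the 7 genes was 4 after quantile normalization, 5 after cyclic loess, 5 with trended eBayes and 3 to 7 when a single array was left out, the 3 being without the low protein epididymis array, when control epididymis stood alone. The signs of all 7 held under every alternative tried for that comparison. Cyclic loess moved the median of all genes there from -0.08 to 0.05, and put Actb at 52.4% of the epididymis signal in place of 39.9% on average over sperm. In the same way Vim went from 45.9% to 62.4%, Tpt1 from 60.5% to 79.9%, Tmsb4x from 55.7% to 76.3% and Fth1 from 44.4% to 58.9%, with 61.0%, 76.4%, 74.1% and 55.7% after quantile normalization. Vim was at 40.4% and 52.2% against the control and the low protein epididymis array alone. The within-array differences kept their sign and moved by less than the SD over sperm arrays without low protein sperm replicate 2 and on control arrays alone.

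In the diet comparisons the count of 0 of 7 was 0 to 6 for low protein, 0 to 1 for caloric restriction, 0 to 2 for both diets and 0 to 2 for the difference between tissues when a single array was left out; at an adjusted p under 0.10 it was 1 for both diets. Signs turned with the marker mean as covariate: for low protein Eef1a1 0.40, Tpt1 0.47, B2m 0.12, Tmsb4x 0.35, Fth1 0.34 and Vim 0.02; for caloric restriction Actb 0.19, Eef1a1 0.26, Tpt1 0.50, Tmsb4x 0.57 and Vim 0.08; for both diets Actb 0.16, Eef1a1 0.28, Tpt1 0.49, Tmsb4x 0.54, Fth1 0.04 and Vim 0.08. Signs also turned after cyclic loess, for Vim (0.14 in each of the 3 comparisons), and for Tpt1 (0.10) and Tmsb4x (0.07) under caloric restriction, where Vim was 0.03 after median centring and -0.11 to 0.07 (0.00 and 0.07 without control replicates 1 and 3) with an array left out; the cause was not tested.

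Over all genes, the count between tissues was 6594, and 4176 at an adjusted p under 0.01, 3379 on low protein arrays alone and 2748 without low protein epididymis. For low protein it was 0, and 237 after cyclic loess, 592 at an adjusted p under 0.10 and 5155 without replicate 1. For caloric restriction it was 756, and 322 at an adjusted p under 0.01, 1947 with the covariate and 298 to 2021 with an array left out. For both diets it was 373, and 589 after cyclic loess, 197 with the lowest 50% left out, 168 with a trend, 1091 and 0 at an adjusted p under 0.10 and 0.01, 0 with the covariate, 0 of 15934 with every probe set as a feature and 0 to 1428 with an array left out. For the difference between tissues it was 0, and 1639 without low protein sperm replicate 1. Between tissues 2501 genes were called higher and 4093 lower, against 3497 and 3388 after cyclic loess and 2521 and 2832 after quantile normalization. The fit of every probe set and the tissue fit with no diet term without low protein sperm replicate 2 were chosen after seeing the data. No paired analysis was possible because the labels give no replicate numbers that groups share.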
